A study of Drosophila melanogaster with 34 samples.

Results

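Small RNA of sperm from aubergine (aub) mutant and piwi mutant Drosophila melanogaster males was compared, with 3 libraries on each side. The libraries were chosen by their labels, and they are 6 of the 34 samples of a study of paternal piRNA and embryo metabolism. All feature classes and both strands of the count tables were used. The 3 wild type (WT) sperm libraries of the same tables are given as the control level. They did not enter the main test, only an alternative fit of the same comparison.

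The labels name the groups only as aub mutant sperm, piwi mutant sperm and WT sperm. The alleles, zygosity, strain background, age and number of males are not given in the sources used here. The labels mention more than 1 preparation site without assigning libraries to them, so site and genotype cannot be told apart. The labels do not say that replicates came from separate flies, so p-values measure the spread between these libraries, which may be technical.

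Piwi and Aubergine are PIWI-clade Argonaute proteins of the fly gonad that carry piRNAs, small RNAs that mostly match transposable elements. Piwi enters the nucleus of germ cells and of the surrounding somatic cells and represses transcription of its targets. Aubergine stays in the cytoplasm of germ cells, cleaves target RNA and feeds the ping-pong cycle with its partner Ago3. In testis it also carries the piRNAs made from Suppressor of Stellate repeats, which keep the Stellate genes silent. Besides piRNAs, the RNA of a sperm preparation holds miRNAs, tRNA fragments, pieces of rRNA and fragments of messenger RNA.

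The libraries held 4848752 (piwi 3) to 10725869 (aub 2) assigned counts, of which 30079 to 62644 were antisense to a feature. Ribosomal RNA took 76.3% to 84.6% of the counts. Piwi 1 stood apart with the highest rRNA share and the lowest TMM (trimmed mean of M-values) scaling factor, 0.657, against 0.95 to 1.26 in the other 5. Across libraries, log-scale correlations were 0.927 to 0.945 within aub, 0.884 to 0.902 within piwi and 0.858 to 0.907 between the groups. The targeted genes could not check the labels: the rows of aub summed to 5 counts and those of piwi to 14 counts over the 6 libraries.

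Levels below are CPM, a row's counts scaled to a common library size with the TMM factors, given for replicates 1, 2 and 3 in that order. In the 6 libraries, the limit that 3 counts set was 0.279 to 0.656 CPM. Log2 differences are aub minus piwi with a standard error from edgeR's quasi-likelihood test. Adjusted p-values are edgeR's with Benjamini-Hochberg adjustment over all 9989 rows tested, with a threshold of 0.05. In these bulk samples, fewer cells of a type and less RNA per cell cannot be told apart. Limits and counting intervals cover counting error only.

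Most of the repeat and piRNA source rows that were called were lower in aub than in piwi sperm, while rows of coding genes moved in both directions. Of the 9989 rows tested, 48 (0.481%) were higher and 55 (0.551%) were lower in aub. Among 9419 sense rows, 45 (0.478%) were higher and 37 (0.393%) lower. Among 570 antisense rows, 3 (0.526%) were higher and 18 (3.16%) lower. Of the 103 rows called (1.03%), 65 were rows of coding genes, 29 were repeats or piRNA sources and 9 were other non-coding RNAs (6 snoRNAs, 2 hairpin RNAs and 1 antisense RNA). Repeats and piRNA sources made up 25 of the 55 lower rows and 4 of the 48 higher rows. Of the 25 lower ones, 8 were phases of the satellite repeat AAGAG and 5 were near-identical Suppressor of Stellate copies. Of the 4 higher ones, 2 were phases of the repeat AGAGG. Of the 18 lower antisense rows, 4 were AAGAG rows and 5 were Suppressor of Stellate rows. Such rows can share reads, so these counts are not counts of separate signals.

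All 103 rows called had values that did not overlap between the groups. Values without overlap were common: 8.21% of all rows tested lay wholly higher and 9.19% wholly lower in aub. By strand, these shares were 8.27% and 8.90% of sense rows and 7.19% and 14.0% of antisense rows. At an unadjusted p under 0.05 there were 1210 rows. The split depended on the scaling: with total counts in place of TMM, the median log2 difference over all rows moved from -0.02 to 0.21, and 160 rows were higher and 67 lower. All 103 rows kept their sign under every alternative tried, and 12 higher and 12 lower rows stayed past the threshold whichever single library was left out. Among the fits without 1 library, leaving out piwi 3 gave the most calls, with 143 higher and 83 lower rows, and leaving out aub 3 gave the fewest, 12 and 20.

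**Figure D1:**
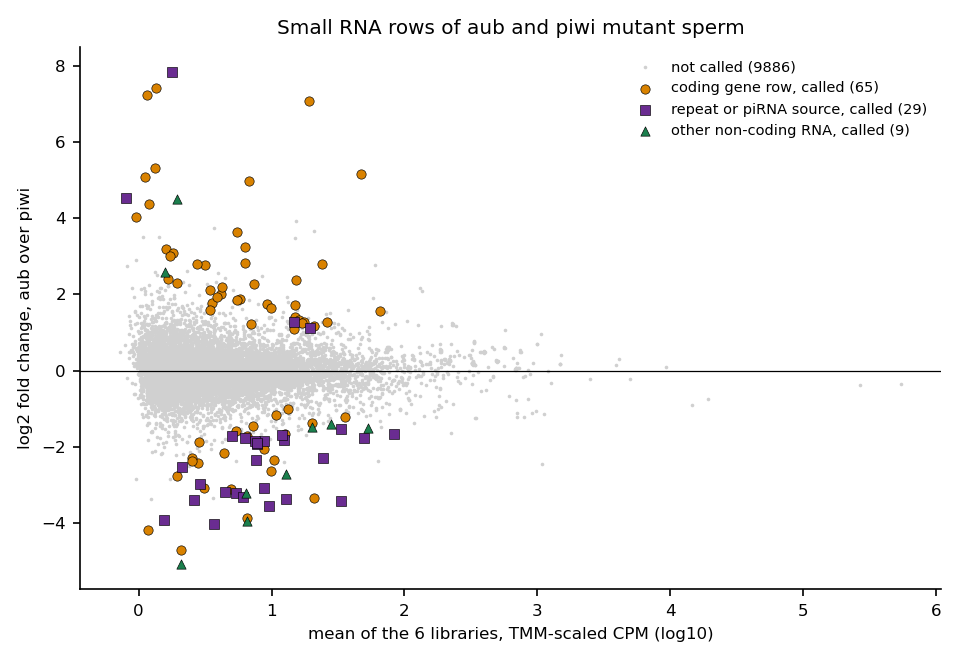
Each point is a tested row. The horizontal axis is the log10 of the mean TMM-scaled CPM over the 6 libraries and the vertical axis is the log2 fold change of aub over piwi. The 103 rows called are marked by kind, and 48 lie above 0 and 55 below, most of them where the mean is low.

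Telomeric retrotransposons maintain fly chromosome ends in place of telomerase, and piRNAs restrain them in the germline. Antisense small RNA matching TART, one of these elements, was at 28.8, 20.6 and 18 CPM in aub and at 89.7, 72.4 and 68.9 CPM in piwi sperm. Every aub library lay below every piwi library, by a wide margin. TART antisense was 3.43-fold higher in piwi (log2 difference -1.78 ± 0.25, edgeR adjusted p = 0.00861). The call was lost without aub 2 (edgeR adjusted p = 0.0677) or without aub 3 (0.0759). WT sperm held 26.6, 5.67 and 7.27 CPM of TART antisense, so the piwi libraries stood above WT while the aub libraries overlapped it.

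The related row TART_B1 had 5 antisense counts in the aub libraries together against 54 in the piwi libraries, a ratio of 15.7 with a 95% exact counting interval of 6.32 to 50.2. Its edgeR adjusted p was 0.0218 and was 0.111, 0.123 and 0.171 without aub 2, aub 3 and piwi 1. HETA, the HeT-A element, was at 5.93, 5.58 and 4.75 CPM antisense in aub and 14.6, 9.41 and 10.7 CPM in piwi. These groups did not overlap, but the difference did not pass the threshold (-1.08 ± 0.24, edgeR adjusted p = 0.0795). Sense HETA went the other way in value, with 17.2, 20.2 and 13.7 CPM in aub and 13.8, 8.26 and 11.8 in piwi. Those sense values overlapped narrowly and were not called (0.61 ± 0.25, edgeR adjusted p = 0.357). TAHRE antisense did not pass either (-0.78 ± 0.42, edgeR adjusted p = 0.52), nor did TART sense (-1.11 ± 0.27, 0.108).

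All 4 telomeric rows passed the low-count filter on the antisense strand, and 2 of them were called lower. Their summed antisense level was 36.9, 28.1 and 23.8 CPM in aub and 114, 85.7 and 83.3 CPM in piwi, a 3.18-fold difference of means. In WT sperm the sum was 39.7, 15.9 and 19.1 CPM. The sense sum overlapped between the mutants, at 23.2, 27.2 and 19.1 CPM in aub and 31.3, 18.3 and 23.8 CPM in piwi.

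Gypsy is an LTR retrotransposon with an envelope gene, known as a target of Piwi in the somatic cells of the gonad. Its internal part, Gypsy_I-int, was at 10.4, 7.53 and 6.36 CPM antisense in aub and at 46.7, 33.1 and 41.1 CPM in piwi sperm. All aub values were low and close to the WT values of 12.0, 7.65 and 8.95 CPM, and the piwi values stood clear of both. The difference was 4.97-fold (-2.31 ± 0.25, edgeR adjusted p = 0.00257). Gypsy_I-int was also lower on the sense strand, at 6.3, 5.48 and 4.55 CPM in aub against 23.3, 18.4 and 16.4 CPM in piwi. The sense difference was 3.56-fold (-1.83 ± 0.23, edgeR adjusted p = 0.00577). Both Gypsy_I-int calls held with each single library left out. Sense Gypsy12_I-int, a relative, was lower too at 2.66, 3.16 and 2.53 CPM against 11.8, 6.43 and 11.2 CPM (-1.78 ± 0.29, edgeR adjusted p = 0.0186; 0.0818, 0.123 and 0.0769 without aub 2, aub 3 and piwi 1).

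DOC is a LINE, a non-LTR retrotransposon, and the most abundant of the elements called. Its antisense level was 49.2, 39.7 and 32.4 CPM in aub and 167, 108 and 108 CPM in piwi. No aub library reached the piwi range, and the WT values of 51.7, 34.9 and 34.8 CPM lay with aub. DOC antisense was 3.16-fold higher in piwi (-1.66 ± 0.27, edgeR adjusted p = 0.0186). The call was lost without aub 2, aub 3 or piwi 1 (edgeR adjusted p = 0.114, 0.128 and 0.0587). DOC sense did not pass the threshold (-1.0 ± 0.28, edgeR adjusted p = 0.156).

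Among the remaining LTR elements, HMSBEAGLE_I-int was lower in aub on the antisense strand, at 3.27, 1.77 and 2.02 CPM against 10.1, 6.34 and 7.0 CPM (-1.73 ± 0.32, edgeR adjusted p = 0.0316). DIVER_I-int was lower on the sense strand, at 3.27, 8.09 and 5.46 CPM against 15.6, 18.5 and 21 CPM (-1.70 ± 0.30, edgeR adjusted p = 0.0275). In both elements the groups stayed apart, and WT lay nearer to piwi, at 14.9, 11.3 and 8.69 CPM for HMSBEAGLE_I-int and 20.0, 28.9 and 16.3 CPM for DIVER_I-int. The HMSBEAGLE_I-int call was lost without aub 2, aub 3 or piwi 1 (highest edgeR adjusted p = 0.167), and the DIVER_I-int call without aub 3, piwi 1 or piwi 2 (0.156).

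ROO_LTR, the long terminal repeat of roo, was the only element row higher in aub. Its sense level was 29.1, 25.8 and 26.1 CPM in aub and 12.0, 14.0 and 10.7 CPM in piwi, against 8.21, 17.0 and 11.0 CPM in WT. The 3 aub libraries agreed closely and stood above all piwi and WT libraries. The difference was 2.21-fold (1.13 ± 0.20, edgeR adjusted p = 0.0275). It was lost without any of the aub libraries or piwi 1 (edgeR adjusted p = 0.0569, 0.105, 0.123 and 0.124).

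R1_DM and R2_DM are LINEs that insert into the 28S genes of the rDNA array. Sense R2_DM reached 96.3, 138 and 78.5 CPM in aub, 6.9, 7.2 and 32.6 CPM in piwi and 1.77, 4.25 and 3.24 CPM in WT. Sense R1_DM was at 67.2, 148 and 61.1 CPM in aub, 29.4, 13.3 and 31.1 CPM in piwi and 23.5, 24.7 and 10.8 CPM in WT. For both elements every aub library exceeded every piwi and WT library, with piwi 3 the highest of the piwi libraries. Neither passed the threshold (R2_DM 2.77 ± 0.64, edgeR adjusted p = 0.134, and R1_DM 1.91 ± 0.43, 0.0933), but DESeq2 called both higher in aub. Without piwi 3, R2_DM passed it (3.88, edgeR adjusted p = 0.000349).

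**Figure D2:**
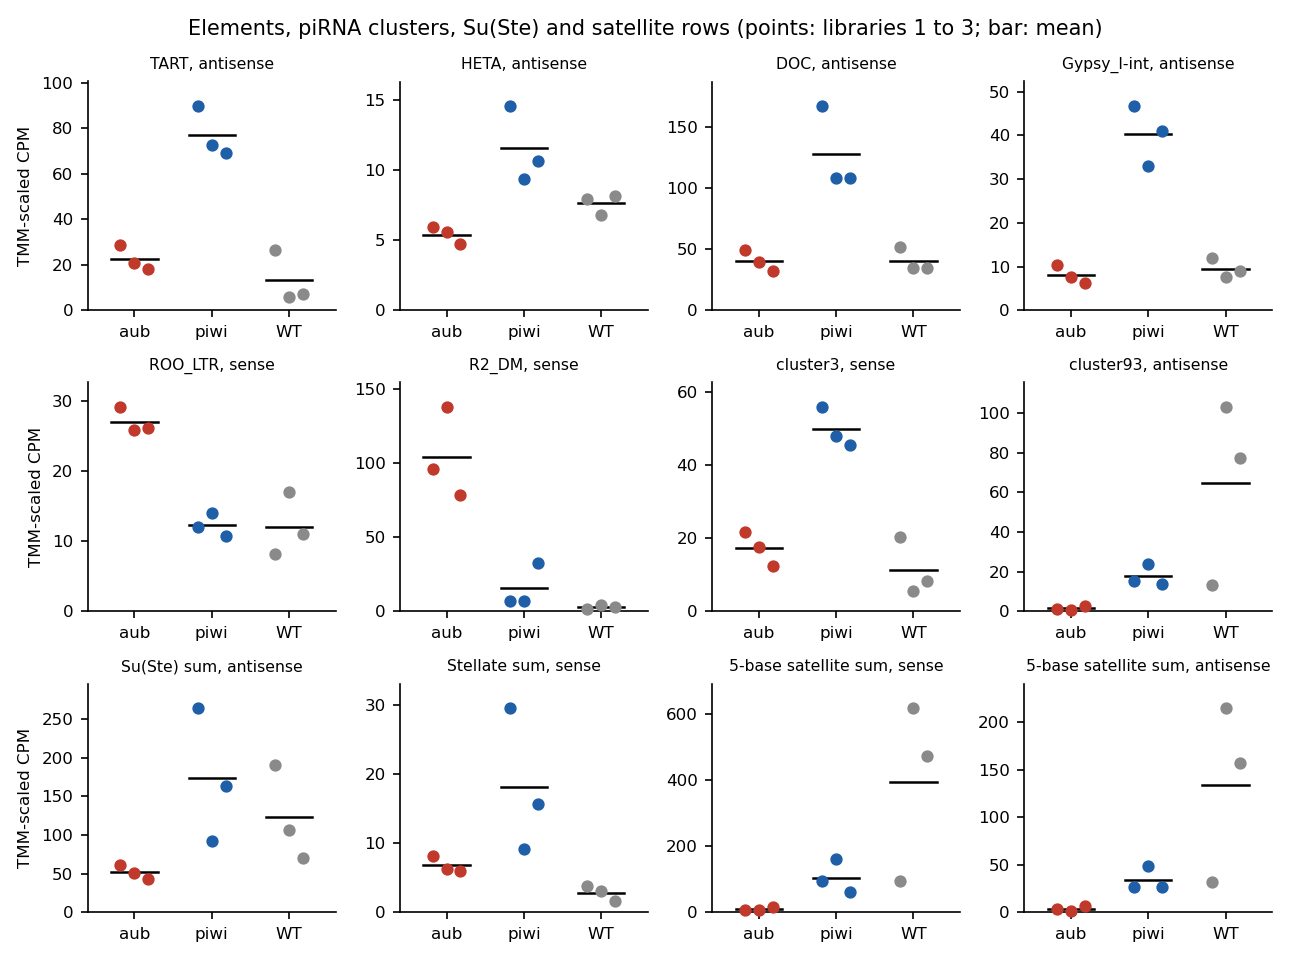
TMM-scaled CPM (linear axes from 0, scaled per panel) of 8 elements and clusters and 4 summed repeat groups, where 5-base satellite means AAGAG, with 1 point a library and a bar at the mean of aub, piwi and WT sperm. The aub points lie below the piwi points in all panels but ROO_LTR and R2_DM, where they lie above.

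Of 208 antisense element rows, 115 passed the filter on low counts, and of these 0 were higher and 5 (4.35%) lower. Over all antisense rows tested, 0.526% were higher and 3.16% lower. At an unadjusted p under 0.05, 1 antisense element row was higher and 27 were lower, and DESeq2 called 0 higher and 5 lower. The tested antisense elements had a median log2 difference of -0.55, against -0.19 for all antisense rows tested. Of 206 sense element rows, 112 were tested, with 1 (0.893%) higher and 3 (2.68%) lower. Over all sense rows tested, 0.478% were higher and 0.393% lower. The tested sense elements had a median of -0.70 against -0.01 for all sense rows. The medians were negative under every alternative tried, from -0.79 without aub 1 to -0.29 with total counts on the antisense strand. As a share of all counts, antisense element reads took 0.152%, 0.092% and 0.103% of counts in aub and 0.127%, 0.161% and 0.142% in piwi, and sense element reads 0.139%, 0.13% and 0.12% against 0.119%, 0.147% and 0.131%. These shares overlapped between the groups (two-sided exact permutation test, p = 0.3 antisense and 0.9 sense), as did those of simple repeats (0.7 and 0.9) and of piRNA clusters without cluster92 (1.0 and 0.9). Of 115 antisense and 112 sense element rows tested, 22 and 36 lay wholly lower in aub, and 3 and 8 wholly higher. Over all rows tested, 14.0% of antisense and 8.90% of sense rows lay wholly lower, and 7.19% and 8.27% wholly higher.

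By type, all 23 LINE rows tested antisense had a negative log2 difference, with a median of -0.67 and 1 called lower, DOC. Without aub 3, 20 were negative with a median of -0.4, and with total counts 21 with a median of -0.38. The summed LINE antisense level was 286, 183 and 160 CPM in aub and 531, 300 and 379 CPM in piwi. Of 26 other LTR rows tested antisense, 24 were negative, with a median of -0.69 and 1 called lower. The 41 gypsy-clade rows tested antisense had a median of -0.26, with 31 negative. With total counts the median was -0.01 with 21 negative and 1 row called higher, and without aub 2 it was -0.08, without aub 3 or piwi 1 -0.15 and without aub 1 -0.62. Their sums overlapped, at 511, 298 and 263 CPM in aub and 474, 381 and 428 CPM in piwi. Of 13 DNA transposon rows tested antisense, 11 were negative and 0 were called by edgeR or DESeq2, and 0 had an unadjusted p under 0.05. On the sense strand, 11 DNA transposon rows were tested, with 9 negative, a median of -0.84 and 0 called by either. At an unadjusted p under 0.05, 2 of these were higher and 6 lower.

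**Figure D3:**
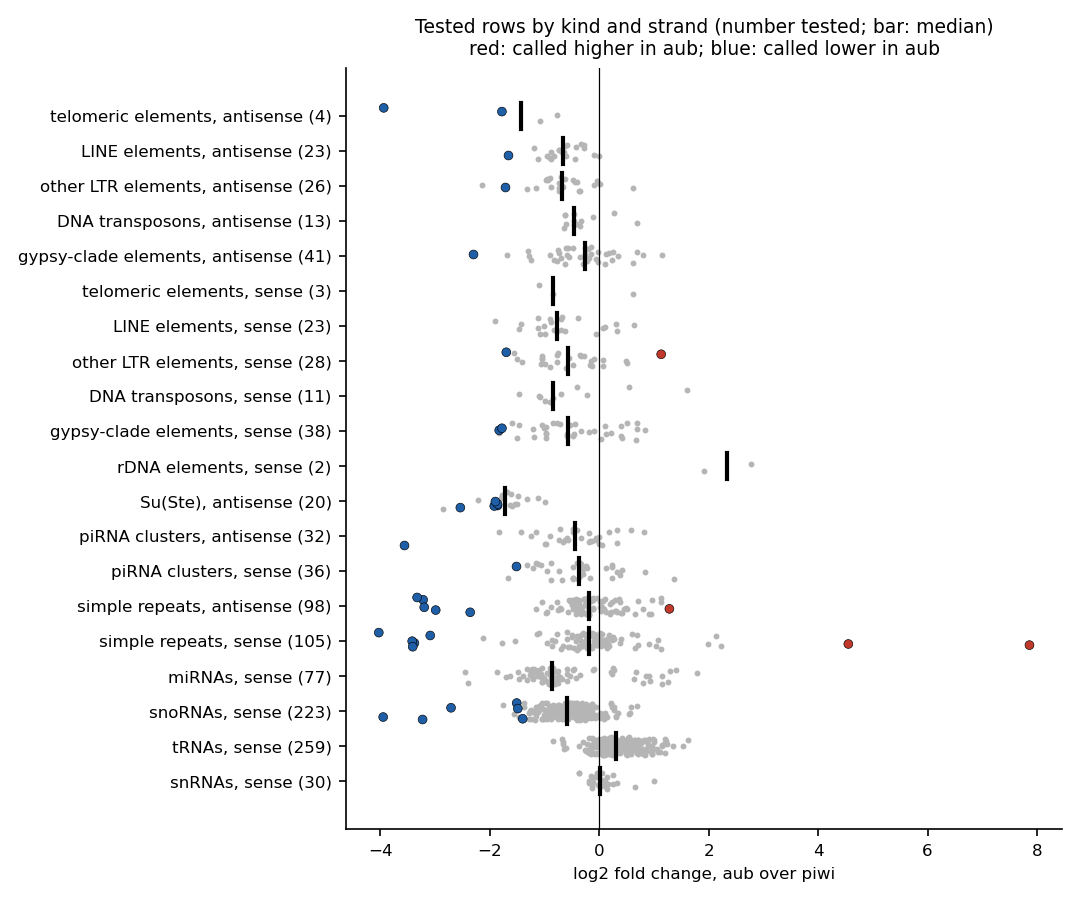
Log2 fold change of aub over piwi for the tested rows of each kind and strand, with the number tested in brackets, a bar at the median and called rows in red (higher) or blue (lower). Medians lie below 0 for all kinds shown but rDNA elements, tRNAs and snRNAs, and the AAGAG rows stand apart at the left of the simple repeats.

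The strand balance of element small RNA does not depend on the scaling between libraries. Over all elements, 52.2%, 41.4% and 46.1% of counts were antisense in aub and 51.7%, 52.3% and 52.0% in piwi. Aub 2 and aub 3 were low and aub 1 lay with piwi. The difference of -5.4 percentage points was not larger than the spread (two-sided exact permutation test, p = 0.3, smallest possible 0.1).

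Single elements differed more, and these shares are given as a description. Antisense counts made up 61.4%, 50.8% and 55.5% of telomeric element counts in aub and 78.4%, 82.4% and 77.8% in piwi. For HETA the share was 25.7%, 21.7% and 25.7% in aub and 51.4%, 53.3% and 47.6% in piwi, and for the 3 rDNA elements together it was 13.6%, 7.0% and 13.1% against 49.4%, 40.2% and 34.6%. ROO_LTR held 41.3%, 29.8% and 30.6% antisense in aub and 59.0%, 52.8% and 54.6% in piwi. In these sets every aub library was more sense-biased than every piwi library. The WT shares were 72.2%, 77.8% and 74.6% for telomeric elements and 73.1%, 60.0% and 68.2% for rDNA elements, nearer to piwi in both. DIVER_I-int went the opposite way, with 65.8%, 34.6% and 47.6% antisense in aub and 17.2%, 17.2% and 11.9% in piwi.

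**Figure D4:**
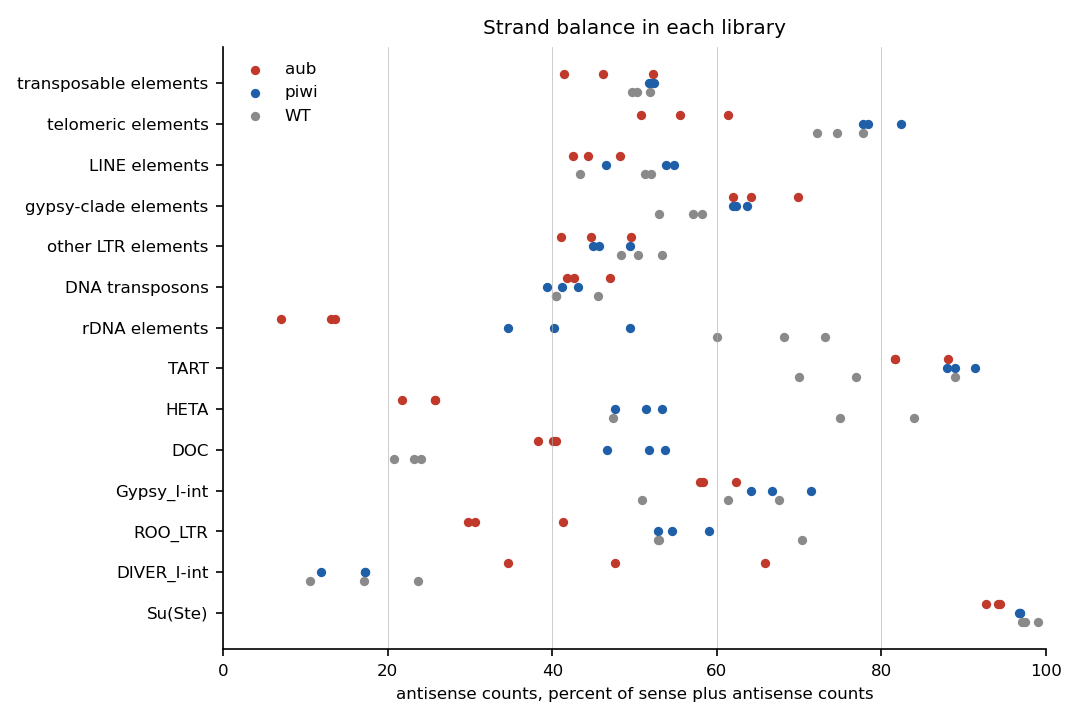
Antisense counts as a percent of sense plus antisense counts for sets of elements, single elements and Su(Ste), with 1 point a library for aub, piwi and WT sperm. Telomeric, rDNA, HETA and ROO_LTR points of aub lie below those of piwi, and DIVER_I-int points lie above them.

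Suppressor of Stellate, Su(Ste), is a family of Y-linked repeats whose antisense piRNAs silence the X-linked Stellate genes in the male germline. Of 27 Su(Ste) rows, 20 passed the filter on the antisense strand, and 5 of these were called lower in aub. Among all antisense rows tested, 3.16% were called lower. The 27 rows summed to 61.2, 51.4 and 43.5 CPM in aub and 264, 92.2 and 163 CPM in piwi. The aub libraries were low and alike, the piwi libraries were higher and spread widely with piwi 1 on top, and the difference of means was 3.33-fold. WT sperm held 191, 107 and 70.1 CPM, all above aub. The copies are near-identical, so a single row is uncertain and the rows are not independent of each other.

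The log2 differences of the 20 tested Su(Ste) rows ran from -2.86 to -1.0 with a median of -1.73, and 16 rows did not overlap between groups. For all antisense rows tested the median was -0.19, and 14.0% lay wholly lower in aub. The smallest p belonged to Su(Ste):CR42410 (chromosome Y, 1016352 to 1017835, Release 6), at 4.0, 3.16 and 4.14 CPM in aub and 21.9, 8.26 and 11.4 CPM in piwi. It was lower in aub by -1.86 ± 0.35 on the log2 scale (edgeR adjusted p = 0.0382). The other rows called were Su(Ste):CR41533 (Y, 896183 to 897725), Su(Ste):CR42414 (Y, 1029772 to 1031619), Su(Ste):CR42412 (Y, 984514 to 985930) and Su(Ste):CR42426 (Y, 934058 to 935745), with edgeR adjusted p of 0.0407 to 0.0471. No Su(Ste) row was called without aub 2, aub 3 or piwi 1, and 1 was called without aub 1, 3 without piwi 3 and 15 without piwi 2. DESeq2 called 11 of the 20 lower, and 19 had an unadjusted p under 0.05.

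Rows of Stellate, the known target of Su(Ste) piRNAs, summed on the sense strand to 8.23, 6.23 and 6.06 CPM in aub and 29.6, 9.12 and 15.7 CPM in piwi. WT sperm had 3.77, 3.12 and 1.69 CPM, below both mutants. The groups did not overlap, with piwi 1 the highest. Ste12DOR (X, 14000210 to 14000889) was the only Stellate row tested and did not pass the threshold (-1.66 ± 0.44, edgeR adjusted p = 0.142).

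AAGAG is a simple satellite repeat of pericentromeric heterochromatin whose transcripts are known from the male germline. The table counts it under several repeat names that differ in phase and strand, and all 8 tested rows held reads of the pyrimidine strand. All 8 were lower in aub, by -3.42 to -2.99 on the log2 scale. These rows are phases of 1 repeat and can share reads, so they are not independent of each other. The 5 sense rows for that strand summed to 6.9, 6.6 and 17.5 CPM in aub and 94.0, 162 and 60.8 CPM in piwi. All aub libraries were far below all piwi libraries, with a 10.2-fold difference of means. WT sperm held 94.5, 619 and 473 CPM, so aub was low against both other groups.

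The largest of these rows, (TCTTC)n sense, was at 4.0, 3.35 and 9.9 CPM in aub and 53.6, 93.0 and 37.6 CPM in piwi (-3.42 ± 0.50, edgeR adjusted p = 0.0204). It was lost without aub 1, aub 2 or piwi 1 (edgeR adjusted p = 0.0716, 0.0677 and 0.0769). The antisense rows (GAAGA)n (edgeR adjusted p = 0.0104) and (AGAGA)n (0.0153) stayed past the threshold without each library. The other 5 rows were each lost at least without aub 1, aub 2 or piwi 1 (highest edgeR adjusted p = 0.182). A 7-base relative, (AGAGAAG)n antisense, was lower as well at 1.82, 2.6 and 3.03 CPM against 10.4, 18.7 and 8.97 CPM (-2.36 ± 0.33, edgeR adjusted p = 0.00918; 0.0578 without aub 2). Its sense counterpart (CTCTCTT)n did not pass the threshold (-2.12 ± 0.47, edgeR adjusted p = 0.0795). (TCTTA)n sense was lower with 0.484, 0.093 and 0.707 CPM in aub and 4.87, 10.1 and 5.69 CPM in piwi (-4.03 ± 0.52, edgeR adjusted p = 0.00598).

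A few simple repeat rows were higher in aub. Of these, (GGAGA)n and (AGAGG)n are phases of 1 repeat and can share reads, so they are not independent of each other. (GGAGA)n sense had 103 counts in the aub libraries together and 0 in the piwi libraries, at least 23.6-fold higher against a floor of 3 counts over the group (edgeR adjusted p = 0.00577). WT sperm held 11.8, 5.95 and 3.76 CPM of it, so piwi was the group that stood apart. (AGAGG)n sense followed with 45 counts against 1, a ratio of 31.0 with a counting interval of 5.29 to 1250 (edgeR adjusted p = 0.0471), and that call was lost without any single library (0.0649 to 0.273). (TACA)n antisense was higher at 15.4, 26.4 and 20.5 CPM against 7.92, 7.97 and 9.84 CPM (1.28 ± 0.25, edgeR adjusted p = 0.0382; up to 0.178 without aub 2, aub 3, piwi 1 or piwi 2).

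piRNA clusters are the genomic loci from which most piRNA precursors are transcribed. Cluster93 antisense was at 0.969, 0.744 and 2.73 CPM in aub, 15.2, 23.7 and 14.0 CPM in piwi and 13.3, 103 and 77.3 CPM in WT. The aub libraries were far below both other groups, and WT 2 and WT 3 were the highest, as they were for the AAGAG sums. The difference was 11.9-fold (-3.57 ± 0.44, edgeR adjusted p = 0.00577) and held without each library. Cluster3 sense was at 21.8, 17.7 and 12.3 CPM in aub, 55.8, 48.0 and 45.5 CPM in piwi and 20.2, 5.67 and 8.43 CPM in WT, so here piwi was high and aub near WT. The difference was 2.88-fold (-1.53 ± 0.25, edgeR adjusted p = 0.0179), lost without aub 2, aub 3 or piwi 1 (0.097, 0.115 and 0.064).

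Flam, the flamenco cluster of the gonadal soma and a source of Piwi-bound piRNAs, was at 31.4, 21.2 and 18.1 CPM sense in aub and 30.4, 24.3 and 35.2 CPM in piwi. These values overlapped and did not differ past the threshold (-0.35 ± 0.26, edgeR adjusted p = 0.661). Of 32 antisense and 36 sense cluster rows tested, with cluster92 kept apart, 1 each was called, and the medians were -0.44 and -0.37. Cluster92 sense, the most abundant cluster row at 9160 to 38300 CPM, was not called either (-0.74 ± 0.43, edgeR adjusted p = 0.554). It took 1.71%, 1.71% and 1.15% of counts in aub and 2.5%, 2.0% and 1.57% in piwi (two-sided exact permutation test, p = 0.3).

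Long hairpin RNAs are cut by Dicer-2 into endogenous siRNAs, which work apart from the piRNA pathway. hpRNA:CR33940 (3L, 19486745 to 19488439) was at 4.0, 5.02 and 2.22 CPM in aub and 0.203, 0.192 and 0 CPM in piwi. With 109 counts against 3, the ratio was 25.0 with a counting interval of 8.34 to 123 (edgeR adjusted p = 0.00871), and the call held without each library. Its neighbour hpRNA:CR32207 (3L, 19477329 to 19478720) was at 2.42, 2.97 and 2.83 CPM against 0.609, 0.48 and 0.219 CPM. It was 6.29-fold higher in aub (2.58 ± 0.44, edgeR adjusted p = 0.0218), lost without aub 2, aub 3, piwi 1 or piwi 2 (highest 0.123). WT values were 1.77, 0.85 and 0.908 CPM for hpRNA:CR33940 and 2.44, 1.13 and 1.04 CPM for hpRNA:CR32207, between the mutants or close to aub. They were the 2 rows called of 5 hairpin rows tested on the sense strand, and the 1 tested antisense row was not called. Without aub 2, aub 3, piwi 1 or piwi 2, only hpRNA:CR33940 of these was called. The 8 sense hairpin rows summed to 110, 118 and 93.4 CPM in aub and 142, 77.2 and 115 CPM in piwi, which overlapped.

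miRNAs were lower in aub in value, but none was called. They took 0.744%, 0.667% and 0.638% of counts in aub and 1.43%, 1.15% and 0.93% in piwi (two-sided exact permutation test, p = 0.1, the smallest possible). Of 232 miRNA rows, 77 were tested and 61 had a negative log2 difference, with a median of -0.86. Without piwi 1 the median was -0.43, with 55 negative. edgeR called 0, with 2 higher and 39 lower at an unadjusted p under 0.05, and DESeq2 called 0 higher and 9 lower. The 23 tested rows of 24 broadly expressed miRNAs were all negative, and their sum was 5470, 4840 and 3920 CPM in aub and 14600, 6840 and 7810 CPM in piwi.

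The muscle miRNA mir-1 (2L, 20487441 to 20487531) was at 420, 411 and 172 CPM in aub and 4000, 1110 and 385 CPM in piwi, with piwi 1 far above the rest and piwi 3 within the aub range (-2.45 ± 0.86, edgeR adjusted p = 0.324). mir-9a (3L, 19565131 to 19565208) was at 615, 775 and 499 CPM in aub and 2020, 995 and 967 CPM in piwi (-1.07 ± 0.35, edgeR adjusted p = 0.245). mir-8 was close to it in both groups (-1.11 ± 0.37, edgeR adjusted p = 0.252). The miRNAs of the X-linked testis cluster pointed the other way: all 5 tested were positive, none was called, and 2 had an unadjusted p under 0.05 and none passed with DESeq2. Their sum was 20.9, 48.9 and 23.8 CPM in aub and 6.5, 7.87 and 26.2 CPM in piwi, where piwi 3 lay with aub. Mir-976 of that cluster was not past the threshold (1.40 ± 0.72, edgeR adjusted p = 0.533).

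tRNA-derived reads took 5.27%, 5.48% and 6.03% of counts in aub and 2.97%, 3.67% and 4.76% in piwi (two-sided exact permutation test, p = 0.1, the smallest possible). The WT shares of 6.13%, 5.34% and 4.69% overlapped both mutants. Of 259 tRNA rows tested, 225 were positive, with a median of 0.30. edgeR called 0 of them, with 30 higher and 1 lower at an unadjusted p under 0.05, and DESeq2 called 7 higher. tRNA genes are multi-copy, so a single row is uncertain. The shares of 2 further sense classes also did not overlap (two-sided exact permutation test, p = 0.1 for both). Pseudogenes took 0.144%, 0.181% and 0.207% of counts in aub and 0.0795%, 0.0913% and 0.114% in piwi. Non-coding RNAs took 1.6%, 1.48% and 2.33% in aub and 1.14%, 1.43% and 1.41% in piwi.

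Most snoRNAs guide chemical modification of rRNA in the nucleolus. Of 223 rows tested, 202 had a negative log2 difference, with a median of -0.60, and 6 (2.69%) were called lower in aub. For all sense rows tested the median was -0.01, and 0.393% were called lower. As a share of all counts, snoRNAs took 0.426%, 0.482% and 0.398% in aub and 0.462%, 0.63% and 0.52% in piwi. These shares overlapped (two-sided exact permutation test, p = 0.2). snoRNA:Or-CD9a (2R, 24185825 to 24185922), an orphan box C/D snoRNA, was at 3.27, 3.81 and 3.13 CPM in aub and 23.7, 21.8 and 21.9 CPM in piwi. Both groups were tight, and the WT values of 4.21, 5.67 and 3.5 CPM lay near aub. The difference was 6.6-fold (-2.71 ± 0.21, edgeR adjusted p = 0.000264) and held without each library. snoRNA:Me28S-A2634c (3L, 1666437 to 1666522), which guides 28S methylation, was at 1.33, 0.558 and 0.505 CPM in aub and 14.2, 10.8 and 11.6 CPM in piwi. It was lower by -3.95 ± 0.36 on the log2 scale (edgeR adjusted p = 0.000667), and here WT lay nearer to piwi at 16.6, 4.82 and 7.27 CPM.

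The 3' UTR of CG7974 (3L, 1665138 to 1666594) overlaps that snoRNA, and its antisense row was lower with nearly the same values (-3.88 ± 0.37), so both rows describe 1 signal. snoRNA:Me28S-A2634b (3L, 1666665 to 1666745) was lower beside it (-3.23 ± 0.43, edgeR adjusted p = 0.00724; 0.0518 without aub 3). The remaining calls were snoRNA:Psi28S-2442b (-1.40), snoRNA:U14:30Eb (-1.51) and snoRNA:Me28S-G1083d (-1.49), with edgeR adjusted p of 0.0275, 0.0287 and 0.0382. Each of these 3 was lost without aub 3 or piwi 1 and 1 further aub library (highest edgeR adjusted p = 0.179). The 30 snRNA rows tested had a median of 0.00 with 0 called by edgeR or DESeq2 and 1 at an unadjusted p under 0.05.

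Coding genes contributed 42 higher rows in 31 genes and 23 lower rows in 21 genes. The log2 differences ran from 1.09 to 7.44 (median 2.29) in the higher rows and from -4.71 to -1.01 (median -2.29) in the lower rows. Most were low: 29 of the 42 and 16 of the 23 had a mean under 10 CPM.

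RhoGAP102A (chromosome 4, 254997 to 265574) had the smallest p of all rows. Reads antisense to its 3' UTR were at 49.5, 34.4 and 29.1 CPM in aub, 0.406, 0.096 and 0.437 CPM in piwi and 39.5, 22.1 and 11.8 CPM in WT. The aub libraries lay within or above the WT range, and each piwi library was below the limit of 3 counts. With 1067 counts against 5, the ratio was 147 with a counting interval of 62.8 to 454 (7.10 ± 0.44, edgeR adjusted p = 6.89e-05). The sense row of the same 3' UTR was also higher, at 16.0, 15.7 and 7.88 CPM in aub and 0.609, 0.384 and 0.219 CPM in piwi (4.98 ± 0.44, edgeR adjusted p = 0.000667). WT held 17.5, 2.55 and 2.6 CPM of the sense row, so WT 2 and WT 3 lay between the mutants. The RhoGAP102A exon row, at 3.03, 1.3 and 1.41 CPM against 0.406, 2.5 and 1.31 CPM, overlapped and was not called.

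CG42521 (3L, 10623066 to 10623576) showed a like contrast within a gene. Its 3' UTR was at 85.5, 85.3 and 106 CPM in aub, 3.04, 3.26 and 1.09 CPM in piwi and 69.0, 134 and 101 CPM in WT. Aub and WT were alike and piwi was low in every library, a 37.5-fold difference (5.16 ± 0.36, edgeR adjusted p = 0.000105). Its exon row was at 150, 110 and 209 CPM in aub and 260, 177 and 61.2 CPM in piwi, overlapped and was not called. The 3' UTR of CG11034 (2L, 5805395 to 5809063) was at 36.1, 42.7 and 46.7 CPM in aub, 5.07, 3.94 and 9.4 CPM in piwi and 100, 100 and 91 CPM in WT. It was 6.81-fold higher in aub (2.80 ± 0.32, edgeR adjusted p = 0.00309), with aub between piwi and WT. These RhoGAP102A, CG42521 and CG11034 calls held without each library.

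The pigmentation gene e, or ebony (3R, 21229839 to 21237177), which joins beta-alanine to dopamine in the cuticle, was at 21.3, 26.4 and 29.3 CPM in its exon row in aub and 7.31, 3.26 and 4.59 CPM in piwi. WT held 7.32, 0.85 and 2.47 CPM, so aub was the group that stood apart (2.38 ± 0.30, edgeR adjusted p = 0.00577). Its 5' UTR had 67 counts in aub and 0 in piwi, at least 15.4-fold higher (edgeR adjusted p = 0.013; 0.0818 and 0.105 without aub 2 and aub 3). Cyp4d8 (3L, 7493557 to 7496197), a cytochrome P450, was at 18.9, 25.5 and 25.3 CPM in aub and 7.92, 6.24 and 7.0 CPM in piwi (1.73 ± 0.22, edgeR adjusted p = 0.00577). Aub was again above WT, which held 6.65, 7.65 and 12.1 CPM.

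Cubn (X, 9558665 to 9571308), the endocytic receptor cubilin, was at 10.5, 11.3 and 14.7 CPM in aub and 2.84, 1.73 and 3.28 CPM in piwi (2.28 ± 0.30, edgeR adjusted p = 0.00577). BG642312 (3L, 6232469 to 6233381) was higher in its exon row (3.24 ± 0.39, edgeR adjusted p = 0.0044) and its 5' UTR (3.64 ± 0.45, 0.00577). In both genes the groups were far apart, and the e exon, Cyp4d8, Cubn and BG642312 calls held without each library.

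Further rows higher in aub had smaller differences. The 3' UTR of emp (2R, 24976456 to 24986070), a CD36-family receptor, was at 72.8, 123 and 100 CPM in aub and 33.3, 34.4 and 31.5 CPM in piwi (1.57 ± 0.25, edgeR adjusted p = 0.0153). The 3' UTR of path (3L, 9494555 to 9505328), an amino acid transporter, was higher by 1.41 ± 0.23 (edgeR adjusted p = 0.0186), and Ncc69 (3L, 12368646 to 12391444), a sodium, potassium and chloride cotransporter, by 1.28 ± 0.22 (0.0218). The neighbouring glutathione S-transferase genes GstD10 (3R, 12364776 to 12365735, 3' UTR) and GstD9 (3R, 12366163 to 12367564) were higher by 1.87 ± 0.32 and 1.32 ± 0.25 (edgeR adjusted p = 0.0208 and 0.0359). The groups did not overlap in any of these rows. Each of the calls was lost without aub 2, aub 3 or piwi 1, GstD9 also without aub 1 and Ncc69 also without piwi 2 (highest edgeR adjusted p = 0.131).

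Among low-level rows, Sytbeta, a synaptotagmin, had 75 exon counts in aub and 0 in piwi, at least 17.2-fold higher (edgeR adjusted p = 0.0161; 0.0935 without aub 3). The scavenger receptor gene Sr-CIII had 63 counts against 1, a ratio of 43.4 with a counting interval of 7.51 to 1740 (edgeR adjusted p = 0.013; 0.118 without aub 3). NimA of the Nimrod family was higher (3.20 ± 0.49, edgeR adjusted p = 0.0139; highest 0.115, lost without aub 3, piwi 1 or piwi 2). Further rows higher in aub were the tetraspanins Tsp42Ed (1.16, edgeR adjusted p = 0.0471) and Tsp86D (2.30, 0.0275), the chitin deacetylase-like gene Cda4 (3.10, 0.0186), the 5' UTR of the signalling ligand Wnt6 (1.59, 0.0448) and the 3' UTR of the ribosomal stalk protein RpLP2 (1.25, 0.0376). These 5 were lost without aub 2, aub 3, piwi 1 or piwi 2, and Wnt6 also without aub 1 (highest edgeR adjusted p = 0.208).

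On the lower side, CG42342 (3R, 16502770 to 16571363) was called in its exon row and both UTRs. Its exon row was at 3.51, 2.97 and 3.84 CPM in aub, 20.5, 13.2 and 19.2 CPM in piwi and 18.6, 12.8 and 11.2 CPM in WT. Piwi and WT were alike and aub was low, a 5.13-fold difference (-2.35 ± 0.25, edgeR adjusted p = 0.00257) that held without each library. The 5' and 3' UTR rows were lower by -1.72 ± 0.25 and -1.60 ± 0.30 (edgeR adjusted p = 0.0118 and 0.0341). The 5' UTR call was lost without aub 2 or aub 3 (highest edgeR adjusted p = 0.0759) and the 3' UTR call without any aub library or piwi 1 (0.159).

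Ppn had the largest difference among the lower sense gene rows with a mean of at least 10 CPM. Ppn (3R, 28520665 to 28540324), papilin of the basement membrane, was at 4.84, 2.6 and 3.74 CPM in aub and 45.7, 15.4 and 54.0 CPM in piwi (-3.36 ± 0.48, edgeR adjusted p = 0.0186). Hml (3L, 13846054 to 13860001), the hemocyte clotting protein hemolectin, was at 3.27, 2.32 and 2.53 CPM in aub and 18.9, 7.78 and 24.5 CPM in piwi (-2.63 ± 0.41, edgeR adjusted p = 0.0172). Piwi 2 was the lowest of the piwi libraries for both and still above every aub library. PH4alphaEFB (3R, 30466050 to 30485799), a prolyl hydroxylase that acts on collagen, was at 2.66, 4.93 and 2.53 CPM in aub and 12.6, 11.6 and 18.8 CPM in piwi (-2.06 ± 0.32, edgeR adjusted p = 0.0143). Ppn and Hml were lost without any aub library or piwi 1 (highest edgeR adjusted p = 0.116 and 0.115), and PH4alphaEFB without aub 3 (0.105).

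Hml belongs to a list of 18 fat body and hemocyte genes, of which 14 sense rows were tested and only the Hml exon was called lower. At an unadjusted p under 0.05, 3 of the 14 rows were higher and 5 lower. Cp1, a cathepsin and the most abundant gene of the list, was at 139, 291 and 194 CPM in aub and 64.5, 57.8 and 156 CPM in piwi. The collagen IV genes had values in the other direction, with Col4a1 at 18.8, 13.1 and 9.8 CPM in aub and 39.6, 25.1 and 19.5 CPM in piwi, and vkg at 14.3, 11.3 and 7.88 CPM against 36.3, 22.8 and 14.9 CPM. The list as a whole overlapped, at 249 to 353 CPM in aub and 155 to 308 CPM in piwi, with the hemocyte gene He at 0 in all 6 libraries. The 17 genes other than Cp1 summed to 54.6 to 114 CPM in aub and 96.9 to 226 CPM in piwi. The part of this list in the Ppn, Hml and PH4alphaEFB results was not tested.

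CG31075 (3R, 26985624 to 26988517) was lower by -1.67 ± 0.25 (edgeR adjusted p = 0.0131; 0.105 without aub 3). The antiviral gene pst (3L, 7357275 to 7360263) was at 21.7, 22.3 and 20.8 CPM in aub and 47.7, 47.4 and 54.5 CPM in piwi (-1.21 ± 0.20, edgeR adjusted p = 0.0179), lost without any aub library or piwi 1 (highest 0.128). asRNA:CR45822 (3L, 7355717 to 7356598) lies near pst and had 3 counts in aub and 84 in piwi. Its ratio was 40.6 with a counting interval of 13.4 to 201 (edgeR adjusted p = 0.00374). It overlaps CTCF (3L, 7353578 to 7356713), whose antisense row was lower by -4.71 ± 0.61, so both rows describe 1 signal, which held without each library.

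Lower rows under 10 CPM included Sdr, a secreted decoy of the insulin receptor (-2.16, edgeR adjusted p = 0.0186), AANAT1, an amine acetyltransferase (-1.45, 0.0382), the calcium-binding Cbp53E (-1.89, 0.0382) and the 3' UTR of the cell surface gene DIP-delta (-2.43, 0.0161). Dscam4 had 3 counts in aub and 43 in piwi, a ratio of 20.8 with a counting interval of 6.66 to 105 (edgeR adjusted p = 0.0448). The 5' UTR of NT5E-2 (-1.17, edgeR adjusted p = 0.0382) and the exon row of SPoCk, a calcium pump (-1.01, 0.0471), had smaller differences. These 7 calls were each lost without aub 2, aub 3 and in most cases others (highest edgeR adjusted p = 0.257, for SPoCk without aub 3). SPoCk stayed past the threshold in none of the 6 fits without 1 library.

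**Figure D5:**
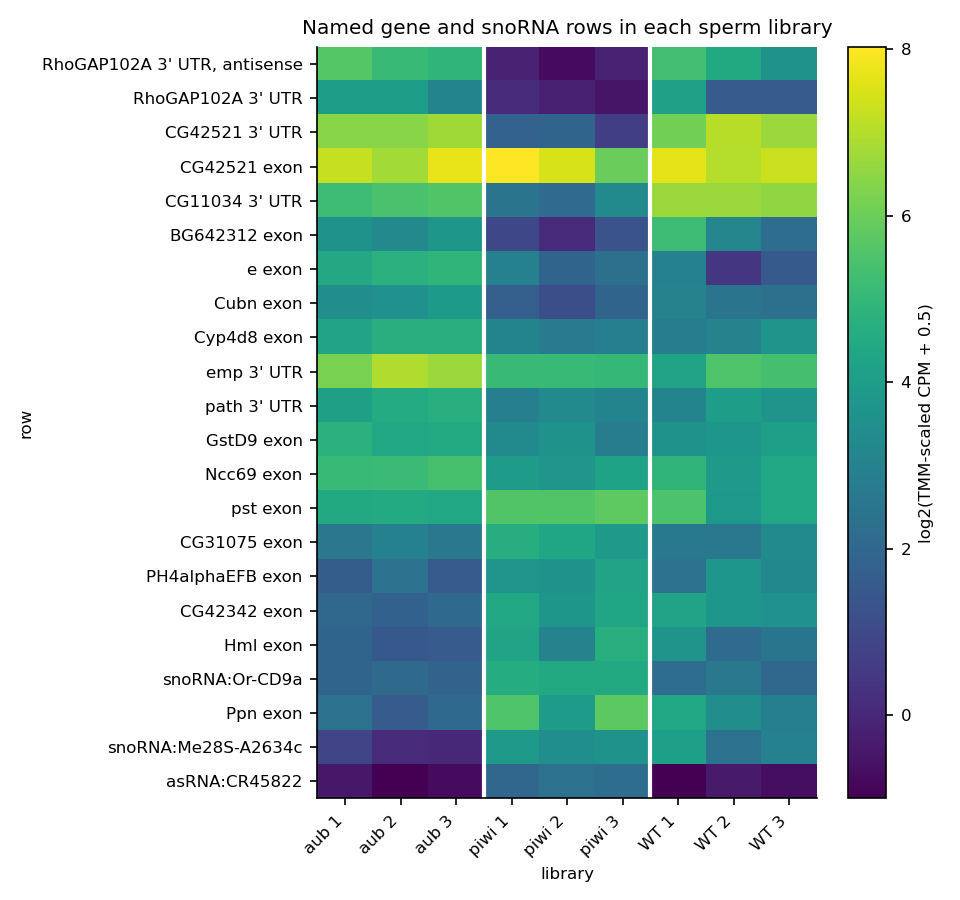
Heat map of 22 rows of genes and non-coding RNAs (vertical) in each aub, piwi and WT library (horizontal), coloured by log2(TMM-scaled CPM + 0.5). The RhoGAP102A and CG42521 3' UTR rows are dark only in piwi among the mutants, the CG42521 exon row is bright in all 9 libraries, and Ppn, Hml and the snoRNA rows are darker in aub than in piwi.

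The genes of the piRNA pathway itself did not separate the mutants. Of 118 sense rows of 41 pathway genes, 20 were tested and edgeR called 0, with 0 at an unadjusted p under 0.05 and 0 called by DESeq2. Their median log2 difference was -0.11, and they summed to 230, 232 and 217 CPM in aub and 191, 226 and 223 CPM in piwi.

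Markers of other cells that a sperm preparation can hold were measured in the same libraries. The 58 sense rows of 20 muscle genes, mir-1 among them, summed to 2850, 1440 and 1080 CPM in aub and 6100, 3050 and 1670 CPM in piwi, with no muscle gene at 0. Without mir-1 the other 19 genes summed to 2430, 1030 and 904 CPM in aub and 2100, 1940 and 1280 CPM in piwi, which overlapped. Accessory gland and seminal vesicle genes summed to 426, 295 and 427 CPM in aub and 86.9, 1030 and 213 CPM in piwi, with Sfp24Ba at 0. Piwi 2 was the highest library and piwi 1 the lowest for these glandular genes. Late spermatid and sperm genes summed to 622, 1290 and 1380 CPM in aub and 158, 141 and 1050 CPM in piwi, with sunz at 0. Piwi 3 lay with the aub libraries there. Most of that sum came from scpr-A, scpr-B and scpr-C, and the other 38 genes summed to 71.0, 20.9 and 166 CPM in aub and 70.8, 21.6 and 77.4 CPM in piwi, which overlapped.

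Early germline and spermatocyte markers summed to 274, 421 and 357 CPM in aub and 281, 227 and 302 CPM in piwi, nearly all of it from Act5C, which is not particular to germ cells. The spermatocyte gene aly and the germline genes nht and zpg were at 0. edgeR called 0 of 46 muscle, 27 accessory gland, 17 late spermatid and 5 early germline sense rows tested. Unadjusted p-values under 0.05 were found for 1 higher and 2 lower muscle rows, 3 higher accessory gland rows, 1 higher late spermatid row and 0 early germline rows, and DESeq2 called 1 late spermatid row higher. The part of these cell markers, of the rRNA share and of piwi 1 in the miRNA, tRNA and Su(Ste) differences was not tested.

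Against the WT level, the called rows fell on both sides. The WT mean lay nearer to aub in 25 and nearer to piwi in 23 of the 48 higher rows, on a scale of log2(CPM + 0.5). Among the 55 lower rows it lay nearer to aub in 18 and nearer to piwi in 37. Of the 25 lower repeats and piRNA sources, 20 had a WT mean nearer to piwi, the satellite and Su(Ste) rows among them. These 20 include 8 AAGAG rows and 5 Su(Ste) rows, which are not independent of each other, so they are not 20 separate signals. The 5 of the 25 with a WT mean nearer to aub were both Gypsy_I-int rows, TART antisense, DOC antisense and cluster3 sense. No test was made against WT.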

How the data were processed

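Per the labels' protocols, small RNA libraries came from a NEBNext kit, with 2S rRNA blocked. The authors deposited raw counts in a sense and an antisense table, per feature and strand. Per the submitters' processing notes, the builds were BDGP6 and dm6, and the tools were Subread 2.0.0 with featureCounts, Bowtie 1.2.3, SAMtools 1.8, and, for trimming programs, cutadapt and Trim Galore 0.5.0. The handling of reads with several positions is not stated, so rows of elements, satellites, Su(Ste), tRNAs and other multi-copy features are uncertain as single rows. No molecular identifiers are stated. Gene positions are those of Release 6 in the RefSeq gene table.

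Columns were matched to samples by name; 3 columns of each table matched no sample and were not used. Sense (42869) and antisense (29556) rows of the 6 libraries entered a single fit in R 4.3.3 with edgeR 4.0.16 (filterByExpr with a minimum count of 10 and total of 15, TMM factors and a robust fit; quasi-likelihood F test; Benjamini-Hochberg, threshold 0.05). That left 9989 rows with a common biological coefficient of variation of 0.279. Standard errors are the absolute log2 difference divided by the square root of F. CPM use TMM-scaled library sizes, and WT levels were put on the same scale. Ratios of rows with few counts carry 95% exact binomial intervals.

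In simulated data of 9989 rows drawn for this comparison, the changed rows were taken only from rows with a mean of at least 10 CPM. Of 50 rows changed at each fold, 12 were called at 2-fold, 46 at 4-fold, 50 at 8-fold and 49 at 16-fold. There were 13 false calls. Recovery was not measured for rows under 10 CPM, where most of the called gene rows lie. No library was a copy: the mean chi-square between replicates was at least 9.52.

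The rows named are the 10 in each direction with the smallest p and a mean of at least 10 CPM, the 2 most abundant rows and the row with the smallest p in each class, and preset features and list members. Of the 155 rows this takes, 48 are printed and 107 are not, and 40 rows outside it were chosen after their values were seen. The members and lists were chosen with earlier results of these data known. Alternatives were DESeq2 1.42.0, its size factors, total counts, no filter, rRNA left out, strands fitted separately, WT in the fit, a replicate block and each library left out.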

Additional observations from a re-analysis of the deposited data

How the results depend on the processing

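The numbers of called rows moved more than their directions. Against 48 higher and 55 lower rows, total counts gave 160 higher, DESeq2 gave 91 and 99, no filter gave 255 and 185, and WT libraries in the fit gave 30 and 26. Leaving out 1 library gave 12 to 143 higher and 20 to 83 lower rows. Same-numbered libraries had correlations of their deviations of 0.16, -0.08 and 0.11. With 3 libraries a side, these cannot decide whether the replicate numbers pair the libraries. A replicate block gave 60 higher and 79 lower rows. Of the named rows, 0 changed sign under any alternative. Log2 ratios of class shares near 0 did change sign. With rRNA left out, they became -0.13 for 5' UTRs antisense, -0.13 for 5' UTRs sense, -0.12 for non-coding RNAs antisense, -0.21 for piRNA clusters antisense, -0.12 for pseudogenes antisense and -0.08 for simple repeats antisense. As a share of same-strand counts they became -0.03 for 5' UTRs, -0.02 for non-coding RNAs, -0.12 for piRNA clusters and -0.04 for pseudogenes, all antisense. With piRNA cluster rows added to the elements, the antisense share was 0.498 points higher in aub. That set includes cluster92 sense, at 1.15% to 2.5% of counts, and its antisense share was only 5.41% to 9.16% in the 6 libraries. It is therefore not a share of element counts alone. Leaving out 1 library gave -0.06 to 0.22 for 5' UTRs antisense, -0.16 to 0.25 for 5' UTRs sense, -0.16 to 0.09 for coding exons antisense, -0.07 to 0.24 for non-coding RNAs antisense, -0.05 to 0.11 and -0.12 to 0.03 for piRNA clusters antisense and sense, -0.44 to 0.10 for satellite rows sense, -0.04 to 0.32 and -0.27 to 0.20 for simple repeats antisense and sense, and -0.10 to 0.06 for elements sense. The cause was not tested. With 3 libraries a side, 2-fold differences were mostly not detectable in simulated data, even though the changed rows had at least 10 CPM. Antisense rows rest on 30079 to 62644 counts a library.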
